A study of Mus musculus with 10 samples.

Results

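The chemokine genes of subcutaneous fat were described from 55 genes, 34 ligands and 21 receptors, among the 31285 genes listed in the deposited table. They are all its protein-coding genes whose symbol names a CC, CXC, CX3C or XC ligand, a receptor of the CC, CXC or CX3C class, or an atypical chemokine receptor. The rule used names and biotype and no measured value. By class there were 21 CC ligands, 11 CXC ligands, Cx3cl1 and Xcl1, then 11 CC receptors counting Ccr1l1, 5 CXC receptors, Cx3cr1 and 4 atypical receptors.

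RNA came from inguinal white adipose tissue, a subcutaneous depot, taken at necropsy from mice aged 20 months that were fed regular chow. The 5 Flox libraries are the comparison genotype, and the other 5 are from mice labelled GHR Knockdown, which the series calls Ad-GHRKO for loss of this receptor in fat. The sources used here do not give the driver of the knockout, the strain or the sex. No label says whether the samples are separate animals, and the p-values thus describe the spread between samples, which may be technical. The comparison of the genotypes asks which transcripts of this depot differ when its growth hormone receptor is lost.

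Chemokines are small secreted proteins that bind to glycosaminoglycans near the cell that makes them and draw leukocytes along the gradient through receptors coupled to inhibitory G proteins. In fat, Ccl2 and its receptor Ccr2 are best known for bringing in monocytes that become macrophages, and Cxcl1 and its neighbours act on neutrophils through Cxcr2. Cxcl9 and Cxcl10 are induced by interferon and draw T and NK cells through Cxcr3, Cxcl12 retains cells through Cxcr4, and the atypical receptors take up ligands without G protein signalling.

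Chromosome 5 holds chemokine genes whose means differed in opposite directions between the genotypes. Cxcl1, Cxcl2, Cxcl3 and Cxcl5 had higher means in Ad-GHRKO, and Cxcl9 and Cxcl10 had lower ones. In the test given below only Cxcl1 passed, Cxcl9 and Cxcl10 did not, and Cxcl2, Cxcl3 and Cxcl5 were too low to enter. The upstream sequences of 4 of these genes, Cxcl1, Cxcl2, Cxcl3 and Cxcl10, are shown, picked with these values known. Each is the 220 bases before the transcription start in RefSeq, build GRCm38.p6, at chr5:90891025-90891244 for Cxcl1, chr5:90903679-90903898 for Cxcl2 and chr5:90785881-90786100 for Cxcl3, all on the plus strand, and chr5:92348890-92349109 for Cxcl10 on the minus strand. Letters run 5′ to 3′ on the gene's strand, and capitals mark matches to the NF-kappaB consensus of 10 letters and, in Cxcl10, also the interferon response match GAAAGTGAAA.
Cxcl1: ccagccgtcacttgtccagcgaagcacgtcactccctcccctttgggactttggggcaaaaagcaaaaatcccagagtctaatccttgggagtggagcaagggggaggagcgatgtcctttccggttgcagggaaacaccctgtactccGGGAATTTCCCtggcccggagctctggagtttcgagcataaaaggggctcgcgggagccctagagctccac
Cxcl2: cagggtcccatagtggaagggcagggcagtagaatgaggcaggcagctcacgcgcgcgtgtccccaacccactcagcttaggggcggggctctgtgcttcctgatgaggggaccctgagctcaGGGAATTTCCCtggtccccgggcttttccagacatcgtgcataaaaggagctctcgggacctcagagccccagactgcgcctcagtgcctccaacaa
Cxcl3: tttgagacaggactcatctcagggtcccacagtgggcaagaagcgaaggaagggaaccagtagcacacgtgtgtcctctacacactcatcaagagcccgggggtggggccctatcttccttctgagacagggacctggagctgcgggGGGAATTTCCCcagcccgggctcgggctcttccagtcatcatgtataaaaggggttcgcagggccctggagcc
Cxcl10: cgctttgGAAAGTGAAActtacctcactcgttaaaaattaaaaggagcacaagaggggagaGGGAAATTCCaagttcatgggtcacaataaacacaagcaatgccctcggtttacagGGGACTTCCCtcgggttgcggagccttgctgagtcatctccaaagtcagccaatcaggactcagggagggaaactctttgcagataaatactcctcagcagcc
The same 10 letters, GGGAATTTCC, stood 71 bases before the Cxcl1 start, 97 before Cxcl2 and 73 before Cxcl3. Their next 10-letter window, GGAATTTCCC, overlaps that match and also meets the consensus. Cxcl10 held GGGAAATTCC at 159 and GGGACTTCCC at 103 bases before its start.

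Motifs were searched on both strands of the 250 bases upstream of 32851 RefSeq starts, where 41 of the 55 genes had an entry. The NF-kappaB consensus was found in 3.90% of all entries and in 8 of the 48 entries of these genes, those of Ackr2, Ccl9, Ccr3, Ccr6, Cxcl1, Cxcl10, Cxcl2 and Cxcl3. GGGAATTTCC itself was in 28 entries (0.0852%), 4 of them of these genes (Cxcl1, Cxcl2, Cxcl3 and Ccr3). The interferon response motif (GAAA, any 2 bases, GAAA) was in 2.98% of all entries and in those of Cxcl10, Cxcl14 and Ccl19, and the AP-1 motif TGANTCA in 6.75%, with Ccl27a, Ccl27b, Ccl9, Ccr3, Ccr4 and Cxcl10 among them. The TATAAA box was in 12.4%. Cxcl5 and Cxcl9 were not among the genes with an NF-kappaB or interferon response match. A match is a string of letters and was not tested as a binding site.

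Ghr, the targeted gene (growth hormone receptor, chromosome 15, 3317760 to 3583492, minus strand) was at 93.5 ± 21.9 FPKM in Flox and 16.6 ± 2.71 in Ad-GHRKO (SD, n = 5 each), with no overlap, a log2 difference of -2.41 and limma adjusted p = 6.54e-05. FPKM counts fragments per kilobase of transcript scaled to library size, so levels of genes can be set side by side. Whole reads recovered from these values came to 14.6 to 19.2 M per library (M, mega). Skeletal muscle transcripts held 18.5% of the FPKM sum in Ad-GHRKO 1, 10.4% in Flox 5 and 6.87% in Flox 3, against 0.256% or less in the other 7, and the non-coding gene Gm23935 took 9.98% in Ad-GHRKO 5. The 12 immediate early genes, among them Fos, Egr1 and Junb, summed to 118 to 180 FPKM in Flox and 250 to 764 in Ad-GHRKO. Of the 11 tested, 5 rose and 0 fell. Ad-GHRKO 5 had the highest sum and, as given below, the highest Cxcl1. Ad-GHRKO 1 had the next highest sum (548 FPKM) but the lowest Cxcl1 of that genotype. Ad-GHRKO 2 had the lowest sum of that genotype (250 FPKM) but its next highest Cxcl1. The part of the immediate early transcripts in the chemokine values was not tested.

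Of the 55 genes, 29 had at least 1 FPKM in at least 5 libraries and were tested, and 26 were not. Of these 26, 18 stayed under 1 FPKM in every library and 8 reached it in 1 to 4, with 4.04 FPKM, Cxcl2 in Ad-GHRKO 5, as the highest value. In the fit over all 12785 tested genes, 280 (2.19%) passed an adjusted p of 0.05, 99 higher (0.774%) and 181 lower (1.42%) in Ad-GHRKO. Among the chemokine genes Cxcl1 rose, Ccr10 fell and 27 did not pass. Both entered the test only through the genotype in which they are high: Cxcl1 reached 1 FPKM in 0 Flox and 5 Ad-GHRKO libraries and Ccr10 in 5 Flox and 1 Ad-GHRKO. The groups did not overlap in 1 tested gene that was higher (1.62% of all tested genes) and in 3 that were lower (3.35%). At an unadjusted p under 0.05 stood 7 higher (7.86% of all) and 4 lower (8.49%). The log2 difference was above 0 in 18 of the 29 and in 55.7% of all tested genes, with medians of 0.16 and 0.04.

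**Figure D1:**
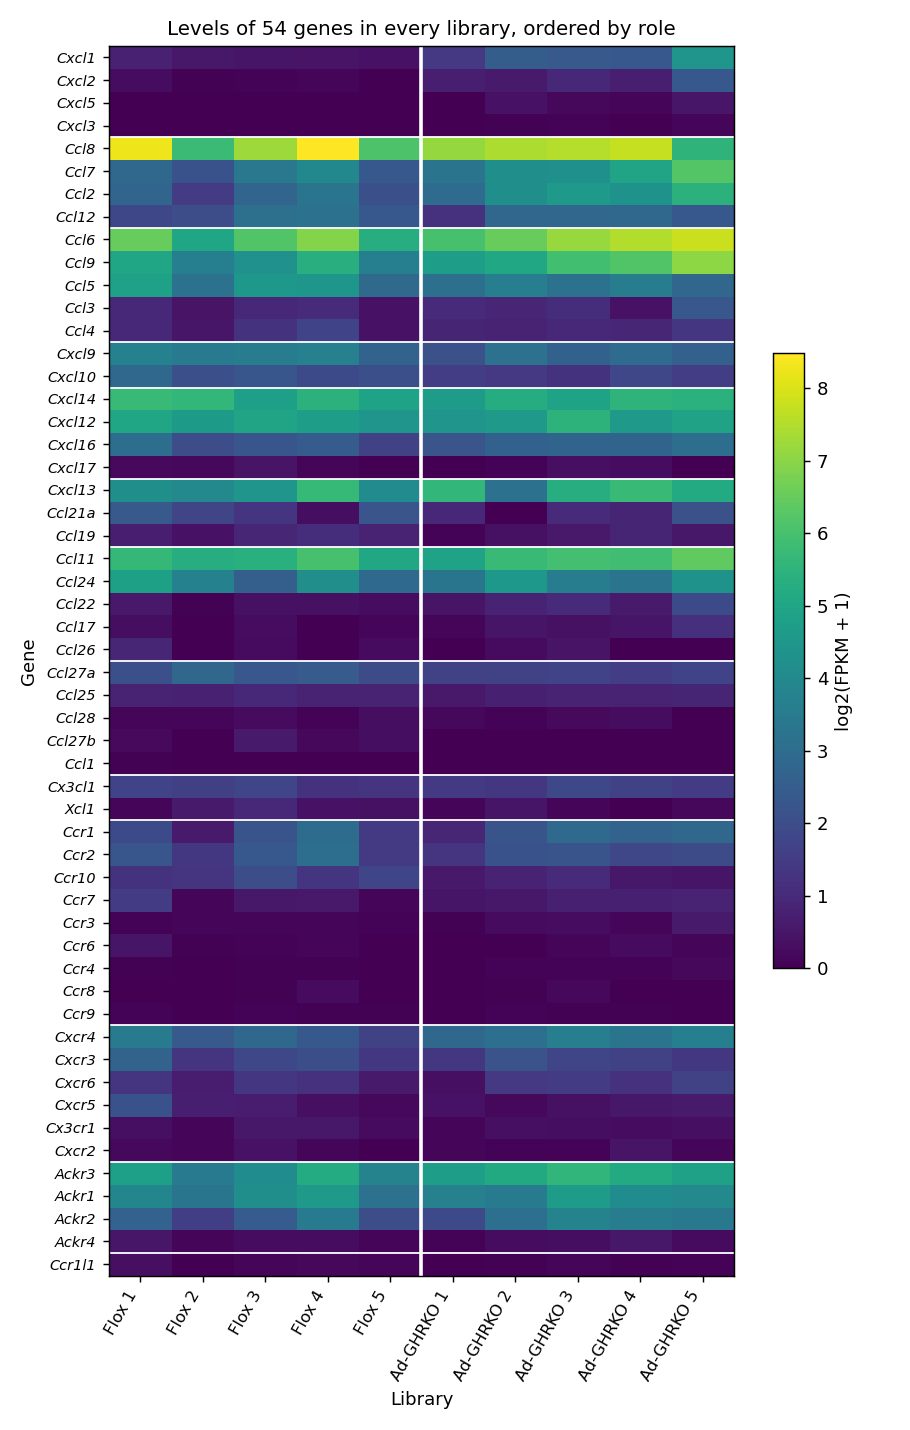
Colour gives log2(FPKM + 1) of 54 of the 55 genes (rows, ordered by role and then by mean level) in each library (columns, Flox left and Ad-GHRKO right of the white line). Ccl8 and Ccl6 are bright in every library, and the Cxcl1 and Cxcl2 rows are dark in Flox and brighter in Ad-GHRKO, most in Ad-GHRKO 5.

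Of the 4 genes grouped as ligands of Cxcr2, Cxcl1 was tested and rose, and the other 3 were under the filter. These CXC chemokines carry the ELR motif and attract neutrophils. Cxcl1 was at 0.706, 0.448, 0.401, 0.359 and 0.336 FPKM in Flox 1 to 5 and at 1.66, 4.64, 4.15, 4.07 and 20.5 in Ad-GHRKO 1 to 5. Every Ad-GHRKO library lay above every Flox library, and Ad-GHRKO 5 stood well above the other 4. The means were 0.450 ± 0.149 and 7.01 ± 7.64 FPKM (SD, n = 5 each), a difference of 2.08 ± 0.43 (SE) in log2(FPKM + 1) with limma adjusted p = 0.0322. In recovered reads this is 74 against 1080 over the 5 libraries of each genotype, 14.4-fold at equal depth. Ad-GHRKO 5 gave 562 of these reads, and without it the ratio was 8.26. Cxcl1 lies on chromosome 5 from 90891241 to 90893115 on the plus strand (ENSMUSG00000029380, GRCm38).

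The Cxcl1 call was lost when most single libraries were left out. It passed without Ad-GHRKO 5 (log2 1.62, adjusted p = 0.00785), the library of the highest value, and without Ad-GHRKO 1, but leaving out any of the other 8 gave adjusted p of 0.0565 to 0.0796. With no filter on low genes, where 0.374% of all 31285 genes passed, it was 0.102.

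Cxcl2, a close relative of Cxcl1 encoded next to it, was below the filter and was not tested with the others. It was at 0.213, 0.0271, 0.0519, 0.0813 and 0 FPKM in Flox 1 to 5 and at 0.634, 0.529, 0.922, 0.652 and 4.04 in Ad-GHRKO 1 to 5. The groups did not overlap, and Ad-GHRKO 5 was again the highest. The reads came to 13 and 229, 17.4-fold at equal depth, but 9.71-fold without Ad-GHRKO 5, which gave 122 of them, and 31.0-fold without Flox 1. The difference had an exact two-sided permutation p of 0.00794, the smallest that 5 against 5 can give. With no filter its limma adjusted p was 0.248. A fit with limma voom on the recovered reads of 17860 genes with at least 50 reads in all, chosen after seeing the data, gave Cxcl2 a log2 difference of 4.04 (adjusted p = 0.0477) and Cxcl1 3.41 (adjusted p = 0.0428). Cxcl2 reached the 50 reads only through Ad-GHRKO, so its call there supports nothing. In that fit 0.577% of genes were called higher and 0.896% lower, and Ccr10 missed the threshold (adjusted p = 0.0526).

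Cxcl5 and Cxcl3, also ELR ligands, were listed at 0 in all 5 Flox libraries. Cxcl5 had 32 reads and Cxcl3 12 over the Ad-GHRKO libraries, with 0 for both in Ad-GHRKO 1. In both genes Ad-GHRKO 1 therefore overlapped with Flox. Against a floor of 3 reads over the Flox group, Cxcl5 was 10.5-fold and Cxcl3 3.96-fold higher. Without Ad-GHRKO 5 these ratios were 7.87 and 2.75. The floor covers counting error in Flox only, and the Ad-GHRKO reads were taken as they stand. Ppbp, a further ELR chemokine outside the name rule, was at 0.858 ± 0.406 and 0.783 ± 0.391 FPKM and overlapped too.

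Cxcr2, the neutrophil receptor for these ligands, was low throughout. It was between 0.0172 and 0.375 FPKM in every library, with 37 reads in each genotype. Of the 3 neutrophil markers that could be tested, S100a8, S100a9 and Csf3r, 0 passed. Their log2 differences ran from -1.06 to 0.17 (median -0.20), and 1 of the 3 was positive. At an unadjusted limma p under 0.05 stood 1 lower (8.49% of all tested genes) and 0 higher. The 9 markers summed to 6.27 to 21.9 FPKM in Flox and 3.39 to 14.0 in Ad-GHRKO. The other 6 were under the filter, and 1 of them was lower in every Ad-GHRKO library than in any Flox library. Ly6g and Camp were listed at 0 in all Ad-GHRKO libraries and were at 0.0481 and 0.145 FPKM on average in Flox, while Mmp8 was at 0.0545 and 0.0532 and Csf3r at 2.72 and 3.02 in Flox and Ad-GHRKO.

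**Figure D2:**
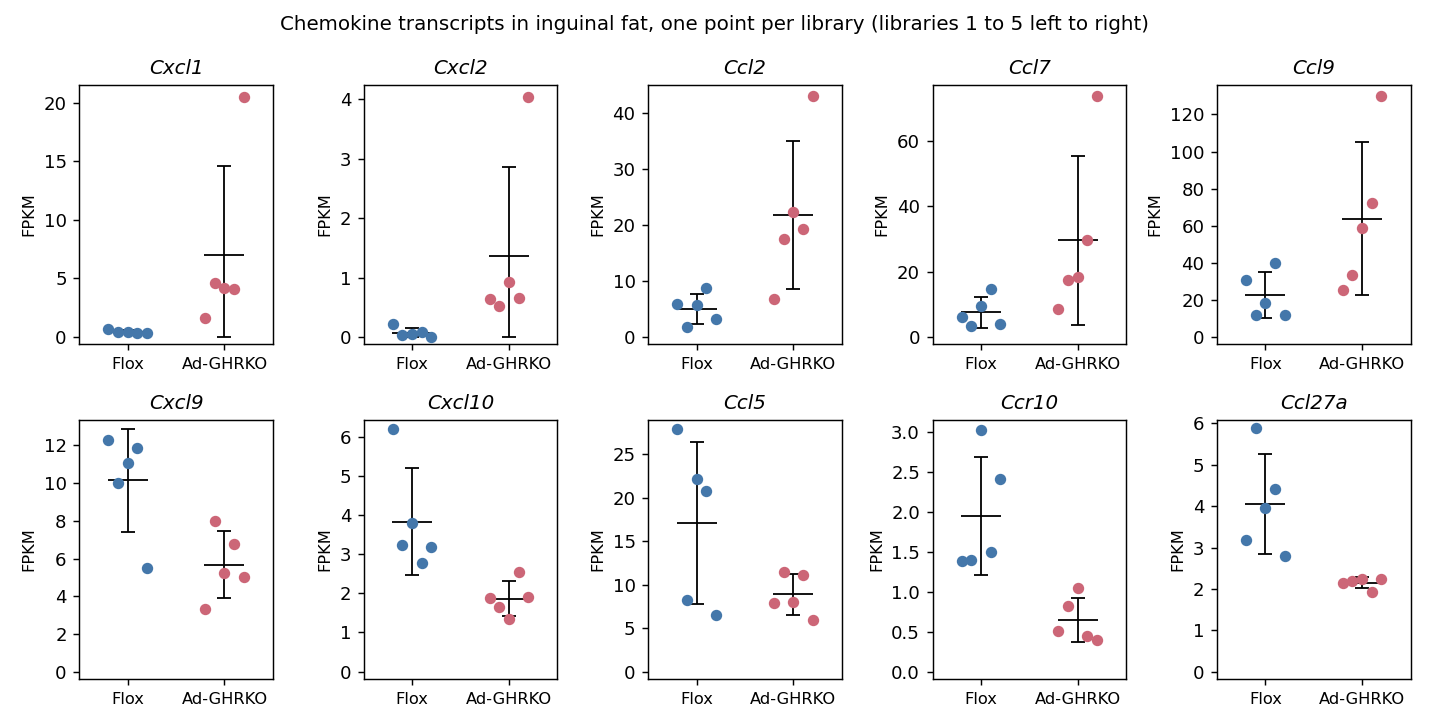
FPKM of 10 chemokine genes per library, Flox in blue and Ad-GHRKO in red, with the mean and SD in black. Cxcl1 and Cxcl2 do not overlap between genotypes and peak in Ad-GHRKO 5, Ccr10, Ccl27a and Cxcl10 lie lower in every Ad-GHRKO library, and Ccl2, Ccl7, Ccl9, Cxcl9 and Ccl5 overlap.

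The 4 genes grouped as monocyte attractants acting on Ccr2 differed among themselves. Ccl2, the main ligand of Ccr2, was at 5.87, 1.77, 5.75, 8.72 and 3.18 FPKM in Flox 1 to 5 and at 6.87, 17.6, 22.3, 19.4 and 43.0 in Ad-GHRKO 1 to 5. Only Ad-GHRKO 1 fell inside the Flox range. The means were 5.06 ± 2.69 and 21.8 ± 13.2 FPKM, a log2 difference of 1.84 ± 0.44 (SE) that missed the threshold (limma adjusted p = 0.0550; exact permutation p = 0.0159). Ccl2 passed without Ad-GHRKO 1, the library with the most muscle transcripts (log2 2.17, adjusted p = 0.00930), and without all 3 muscle-rich libraries (2.13, adjusted p = 0.0399). In these fits 1185 and 777 of all genes passed, against 280, and Ad-GHRKO 1 held the lowest Ccl2 of that genotype. Leaving out any other single library did not bring Ccl2 past the threshold (adjusted p up to 0.139). Neither did dropping the filter (0.145) or adding a replicate block (0.130).

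Ccl7, the neighbour of Ccl2 on chromosome 11 and a second ligand of Ccr2, also had its highest value in Ad-GHRKO 5. It was at 6.06, 3.43, 9.45, 14.7 and 4.0 FPKM in Flox and at 8.53, 17.6, 18.3, 29.7 and 73.5 in Ad-GHRKO. Ad-GHRKO 1 again lay within the Flox range. The difference was 1.65 ± 0.51 in log2(FPKM + 1) (SE, adjusted p = 0.132), and 1.98 without Ad-GHRKO 1 (adjusted p = 0.0316), its lowest library of that genotype. Leaving out any other single library did not bring Ccl7 past the threshold (adjusted p up to 0.275).

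Ccl8 was the most abundant of all 55 genes, with a mean of 168.9 FPKM over the 10 libraries. Its values were 308, 54.2, 150, 357 and 67.5 FPKM in Flox and 139, 171, 183, 214 and 44.5 in Ad-GHRKO. The Flox libraries alone spanned the whole range apart from Ad-GHRKO 5, the lowest, which was the highest for Cxcl1, Ccl2 and Ccl7. The log2 difference was -0.11 (95% interval -1.38 to 1.17, adjusted p = 0.951). Ccl12, the mouse relative of Ccl2, was at 5.11 ± 2.63 and 4.68 ± 2.06 FPKM (log2 -0.11, adjusted p = 0.923). Ccr2 itself, the receptor on inflammatory monocytes, was at 3.73 ± 2.37 and 2.74 ± 0.861 FPKM (log2 -0.24, adjusted p = 0.769).

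Among the inflammatory CC ligands, the mouse chemokines Ccl6 and Ccl9 had higher means in Ad-GHRKO and Ccl5 a lower one, and 0 of the 3 tested passed. Ccl9 was at 30.7, 11.7, 18.6, 39.9 and 11.7 FPKM in Flox and at 25.2, 33.3, 58.7, 72.2 and 130 in Ad-GHRKO (log2 1.40 ± 0.46, adjusted p = 0.151). Ccl6, second in abundance of all the chemokine genes, was at 90.6, 31.4, 70.9, 120 and 37.8 in Flox and at 63.9, 90.6, 144, 182 and 223 in Ad-GHRKO (log2 1.03 ± 0.42, adjusted p = 0.254). In both, Ad-GHRKO 5 was the highest library and the lower Ad-GHRKO libraries lay among the Flox ones. Ccl9 passed without Ad-GHRKO 1 (adjusted p = 0.0445), its lowest library of that genotype, but without no other single library (adjusted p up to 0.310).

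Ccl5, which T and NK cells make in quantity, was at 27.9, 8.23, 22.1, 20.8 and 6.56 FPKM in Flox and at 7.86, 11.5, 8.06, 11.1 and 5.99 in Ad-GHRKO. The 3 Flox libraries with high Ccl5, Flox 1, 3 and 4, were also the 3 with the highest sum of 11 T and NK cell markers, 33.2, 19.3 and 25.7 FPKM against 6.19 to 14.3 in the other 7. Between genotypes Ccl5 differed by -0.72 in log2 (95% interval -1.51 to 0.07, adjusted p = 0.363). With the T and NK cell score as a covariate, chosen after seeing the data, Ccl5 differed by -0.02, and 113 of all genes passed, against 280. The part of these cells in the Ccl5 values was not tested. Ccl3 and Ccl4, the macrophage inflammatory proteins, were below the filter. Ccl3 had 49 reads in Flox and 94 in Ad-GHRKO and Ccl4 63 and 58.

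Both interferon-inducible ligands of Cxcr3 had lower means in Ad-GHRKO, and neither passed. Cxcl10 was at 6.19, 3.23, 3.79, 2.76 and 3.17 FPKM in Flox and at 1.89, 1.64, 1.34, 2.53 and 1.91 in Ad-GHRKO. Every Ad-GHRKO library lay below every Flox library. The log2 difference was -0.73 ± 0.18 (SE; adjusted p = 0.0677; exact permutation p = 0.00794). Cxcl10 shares exon sequence with Art3 on the opposite strand, which was at 52.5 ± 12.1 and 48.8 ± 10.4 FPKM (adjusted p = 0.853), and the sources used here do not say whether counting used strand.

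Cxcl9 was at 12.2, 10.01, 11.1, 11.9 and 5.50 FPKM in Flox and at 3.33, 7.98, 5.22, 6.75 and 5.04 in Ad-GHRKO. Flox 5 alone lay within the Ad-GHRKO range. The log2 difference was -0.74 ± 0.24 (SE; adjusted p = 0.140; exact permutation p = 0.0238). Median ratio scaling, which lets abundant transcripts weigh less, brought Cxcl9 to adjusted p = 0.0391 and Cxcl10 to 0.0493, but it also raised the calls over all genes from 280 to 531. Quantile normalization, array weights and a muscle covariate also brought both past the threshold. Cxcl9 and Cxcl10 were at 0.278 and 0.160 with no filter, 0.194 and 0.0905 with TPM rescaling, and 0.226 and 0.168 with a replicate block. Their receptor Cxcr3, carried by activated T and NK cells, was at 2.86 ± 1.63 and 2.27 ± 0.786 FPKM (log2 -0.17, adjusted p = 0.798).

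Cxcl12, the stromal ligand of Cxcr4, had nearly the same mean in both genotypes. It was at 30.7, 23.7, 30.3, 25.6 and 20.5 FPKM in Flox and at 20.4, 23.3, 43.3, 23.3 and 28.5 in Ad-GHRKO. Its log2 difference was 0.05 (95% interval -0.39 to 0.49, adjusted p = 0.941). Of its receptors, Cxcr4 was at 5.38 ± 3.15 and 9.01 ± 2.35 FPKM (log2 0.75, adjusted p = 0.243), and Ackr3, the atypical receptor that clears Cxcl12, at 20.5 ± 10.9 and 34.3 ± 8.28 (log2 0.82, adjusted p = 0.207). Both overlapped between genotypes.

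The other constitutive CXC ligands did not pass. Cxcl14, which fat and skin make without stimulation, was at 39.7 ± 11 and 35.5 ± 8.70 FPKM (log2 -0.15, adjusted p = 0.803). Cxcl16, the membrane-bound ligand of Cxcr6, was at 4.19 ± 1.99 and 5.51 ± 1.32 (log2 0.38, adjusted p = 0.486), and Cxcr6 at 1.10 ± 0.498 and 1.45 ± 0.709 (log2 0.19, adjusted p = 0.764). Cx3cl1, the membrane-bound ligand fractalkine, was at 1.93 ± 0.470 and 1.98 ± 0.408 FPKM (log2 0.03, 95% interval -0.29 to 0.35).

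Of the lymphoid organ ligands, Cxcl13, which draws B cells through Cxcr5, was abundant and uneven. It was at 17.8, 14.9, 20.4, 50.8 and 16.0 FPKM in Flox and at 47.8, 8.11, 37.9, 52.4 and 35.5 in Ad-GHRKO. A single library stood apart in each genotype, Flox 4 above and Ad-GHRKO 2 below (log2 0.51, adjusted p = 0.658). Ccl21a, the lymphatic ligand of Ccr7, was at 2.40 ± 1.62 and 1.22 ± 1.23 FPKM (log2 -0.61, adjusted p = 0.537), and reads shared with its near-identical copies make it uncertain. Cxcr5 was at 3.42 FPKM in Flox 1, the library with the highest sum of B cell markers (47.5 FPKM), and at 0.656 or less in the other 9.

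Of the eosinophil attractants, Ccl11 and Ccl24 were abundant in both genotypes and Ccl26 was nearly absent, with 6 and 3 reads. Ccl11, eotaxin, was at 44.9 ± 12.0 and 57.1 ± 20.0 FPKM (log2 0.30, adjusted p = 0.648) and Ccl24 at 13.6 ± 8.99 and 13.9 ± 6.21 (log2 0.16, adjusted p = 0.891). Their receptor Ccr3 stayed at 0.523 FPKM or below. The Ccr4 ligands Ccl22 and Ccl17 were below the filter. Ccl22 had 54 reads in Flox and 212 in Ad-GHRKO (3.88-fold at equal depth, 2.58-fold without Ad-GHRKO 5, exact permutation p = 0.0159). Ccl17 had 5 and 21 (4.15-fold, 2.83-fold without Ad-GHRKO 5, exact permutation p = 0.0317). Both overlapped between genotypes, and with no filter their limma adjusted p were 0.414 and 0.446.

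Ccr10 and its skin ligand Ccl27a both had lower values in every Ad-GHRKO library than in any Flox library. Ccr10 was at 1.39, 1.40, 3.02, 1.49 and 2.40 FPKM in Flox and at 0.507, 0.815, 1.04, 0.451 and 0.396 in Ad-GHRKO. From 303 and 102 reads, it fell 3.0-fold at equal depth (log2 difference -0.82 ± 0.18 SE, limma adjusted p = 0.0411). Ccr10 lies on chromosome 11 (101172997 to 101175443, minus strand, GRCm38), wholly within Cntnap1 on the opposite strand with no shared exon. Cntnap1, a neuronal and glial adhesion gene, was at 4.84 ± 1.13 and 1.59 ± 0.311 FPKM and also fell (log2 -1.16, adjusted p = 0.00271), and its part in the Ccr10 reads was not tested. Leaving out any library but Ad-GHRKO 1 moved Ccr10 to adjusted p of 0.0502 to 0.108. With no filter on low genes it was 0.124, and with a filter on the mean of the 10 libraries, chosen after seeing the data, 0.0574.

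Ccl27a was at 3.18, 5.89, 3.95, 4.41 and 2.81 FPKM in Flox and at 2.14, 2.19, 2.23, 1.92 and 2.25 in Ad-GHRKO. The 5 Ad-GHRKO values lay close together and all below the lowest Flox value. The log2 difference of -0.65 ± 0.16 (SE) missed the threshold (adjusted p = 0.0565). Ccl27a overlaps exons of Il11ra1 on the opposite strand, at 30.01 ± 9.55 and 20.0 ± 2.26 FPKM (log2 -0.51, adjusted p = 0.217), and its near copy Ccl27b had 8 reads in Flox and 0 in Ad-GHRKO. Ccl25 and Ccl28, mucosal ligands, stayed under 1 FPKM in every library.

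**Figure D3:**
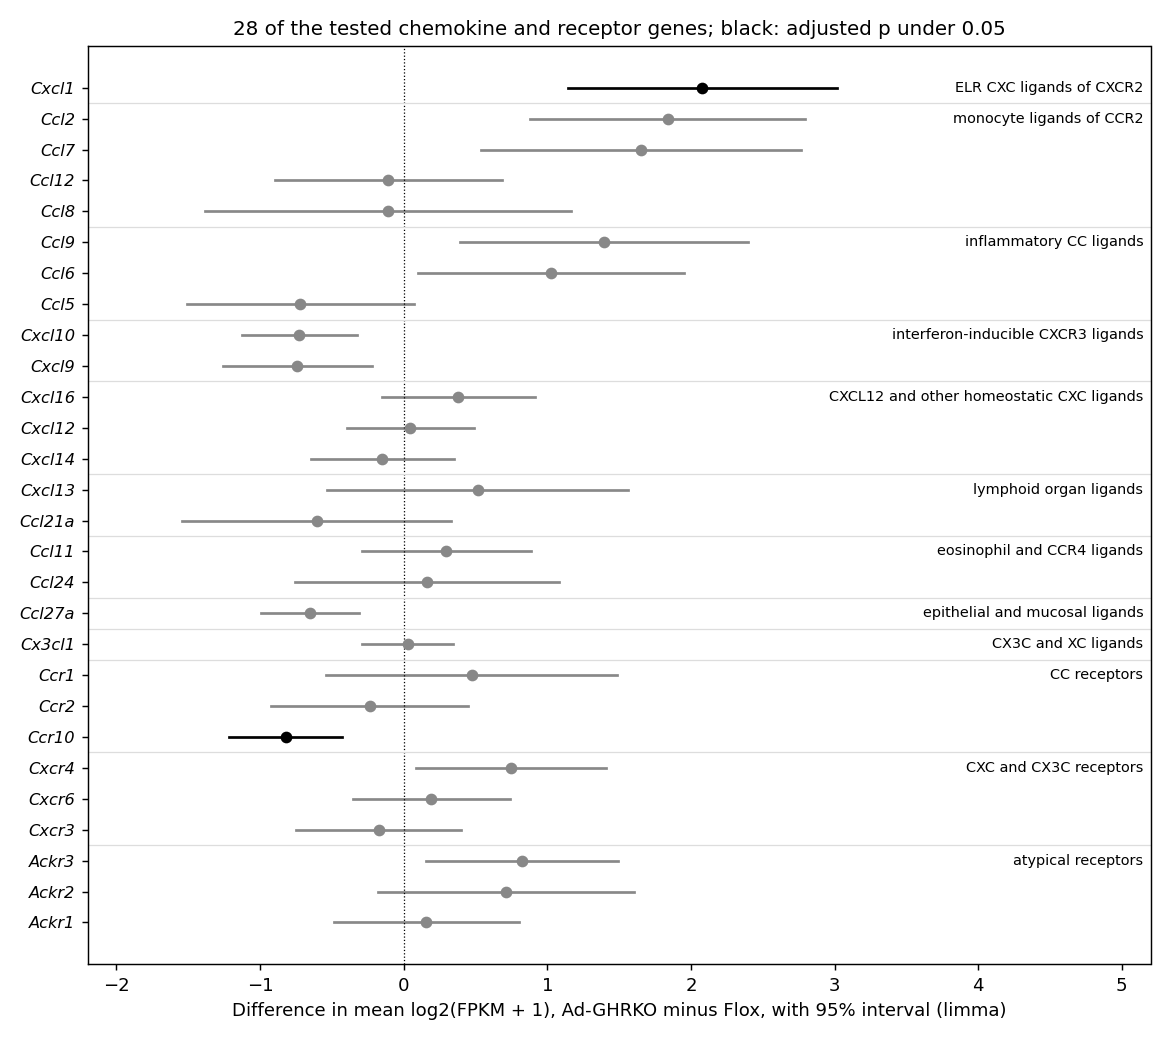
Points are differences in mean log2(FPKM + 1), Ad-GHRKO minus Flox, with 95% intervals from limma, for 28 of the 29 tested genes by role. Cxcl1 (2.08) and Ccr10 (-0.82) are in black as past the threshold, and Ccl8 and Ccl12 sit near 0 beside Ccl2 (1.84) and Ccl7 (1.65).

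The receptors were lower in abundance than the leading ligands. Ackr3 (27.4 FPKM over the 10 libraries), Ackr1 (14.9), Cxcr4 (7.20), Ackr2 (6.90), Ccr1 (3.81) and Ccr2 (3.23) led them, and 3 of the first 4 are atypical receptors. Ackr1, the venular receptor that holds inflammatory chemokines, was at 14.3 ± 6.22 and 15.5 ± 5.34 FPKM (log2 0.16, adjusted p = 0.842). Ackr2, the scavenger of CC chemokines, was at 5.02 ± 3.20 and 8.78 ± 3.96 (log2 0.71, adjusted p = 0.431). Ccr1 was at 3.12 ± 2.46 and 4.5 ± 2.30 (log2 0.47, adjusted p = 0.678). Cx3cr1, the receptor of Cx3cl1, stayed at 0.465 FPKM or below. Reads of Ackr1 may be shared with Cadm3, whose exons it overlaps on the same strand.

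Chemokine genes lie in clusters, and neighbours differed in their read totals. On chromosome 5, Cxcl5, Cxcl3, Cxcl1 and Cxcl2 had 0, 0, 74 and 13 reads in Flox and 32, 12, 1080 and 229 in Ad-GHRKO. Further along, Cxcl9 and Cxcl10 had 2701 and 757 reads in Flox and 1557 and 379 in Ad-GHRKO. On chromosome 11, Ccl2 and Ccl7 had 510 and 538 reads in Flox and 2146 and 1990 in Ad-GHRKO. The next genes of that cluster had 4310 and 5464 reads (Ccl11), 248 and 230 (Ccl12) and 8337 and 7184 (Ccl8).

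**Figure D4:**
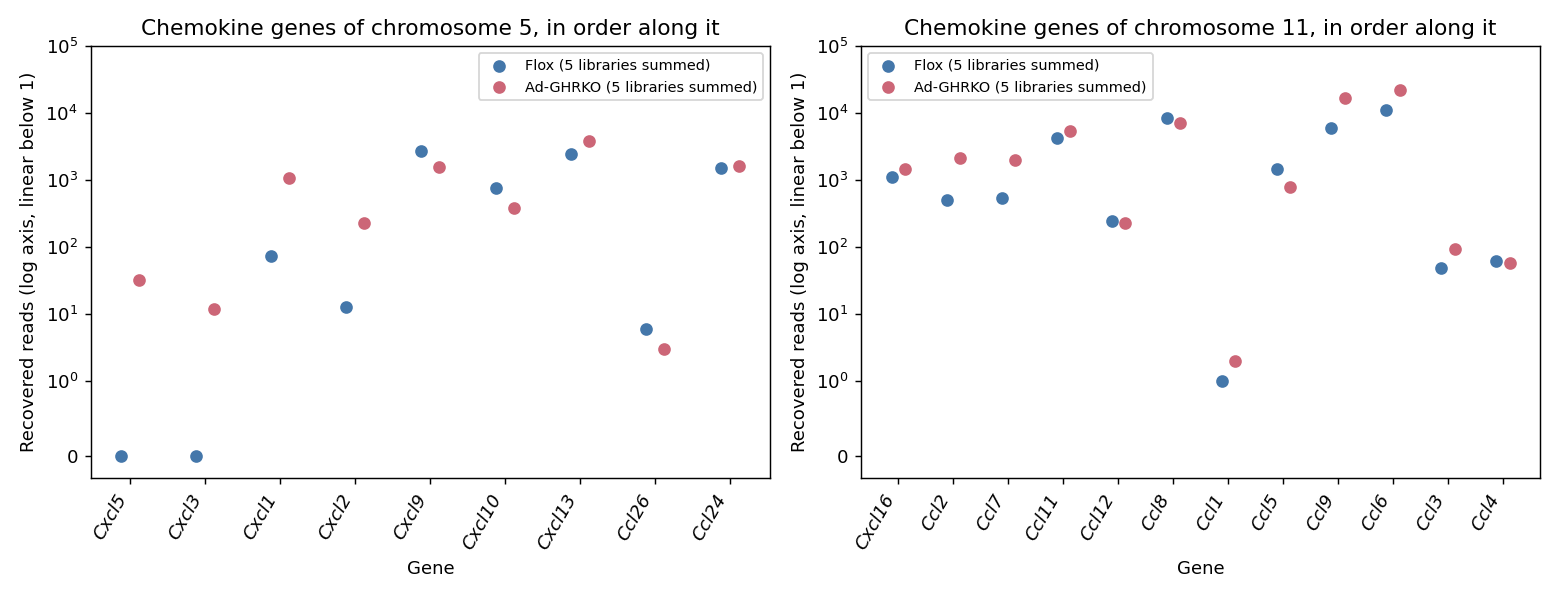
Recovered reads summed over the 5 libraries of each genotype (log axis, linear below 1) for ligand genes in their order along chromosomes 5 and 11. The 4 ELR ligands at the left of chromosome 5 lie higher in Ad-GHRKO, Cxcl9 and Cxcl10 further along lie lower, and on chromosome 11 Ccl2 and Ccl7 are apart while Ccl11, Ccl12 and Ccl8 nearly coincide.

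In bulk tissue, fewer cells of a type and less RNA per cell cannot be told apart, so the markers of the cells that make and receive chemokines are given beside them. The 10 macrophage markers summed to 663 to 1985 FPKM in Flox and 985 to 2516 in Ad-GHRKO, and 0 of 10 passed, with all 10 log2 differences positive (median 0.42). Flox 2 and Flox 5 had the lowest sums, 663 and 669 FPKM, and also the lowest Ccl2, and Ad-GHRKO 5 had the highest of both. With a macrophage score as a covariate, chosen after seeing the data, the log2 difference was 1.79 for Cxcl1 (adjusted p = 0.0967), 1.22 for Ccl2 (0.0660), 1.05 for Ccl7 (0.251) and 0.73 for Ccl9.

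As a ratio to the summed macrophage markers, also chosen after the values were seen, Ccl2 was at 0.267% to 0.476% in Flox and 0.697% to 1.71% in Ad-GHRKO. Ccl7 was at 0.306% to 0.760% and 0.866% to 2.92%, Ccl9 at 1.49% to 2.01% and 2.39% to 5.16%, and Ccl6 at 4.57% to 6.05% and 6.49% to 9.79%. With Cxcl1, which passed the filter through Ad-GHRKO, these 5 of the 29 genes were higher with no overlap (0.297% of all tested genes). In FPKM itself Ccl2, Ccl7, Ccl9 and Ccl6 overlapped between genotypes. The division narrows the spread only of genes that follow the macrophage markers. The share over all genes is thus no matched comparison, and nothing is drawn from it. Ccl5, Cxcl9 and Ccr10 were lower with no overlap (1.91% of all tested genes), and Ccr10 had passed the filter through Flox. The macrophage sums averaged 1309 FPKM in Flox and 1742 in Ad-GHRKO, so the division itself moves genes lower in Ad-GHRKO. Ccl8 was at 8.17% to 18.0% and 1.77% to 14.1% and Ccl12 at 0.130% to 0.619% and 0.134% to 0.426%, so both overlapped.

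**Figure D5:**
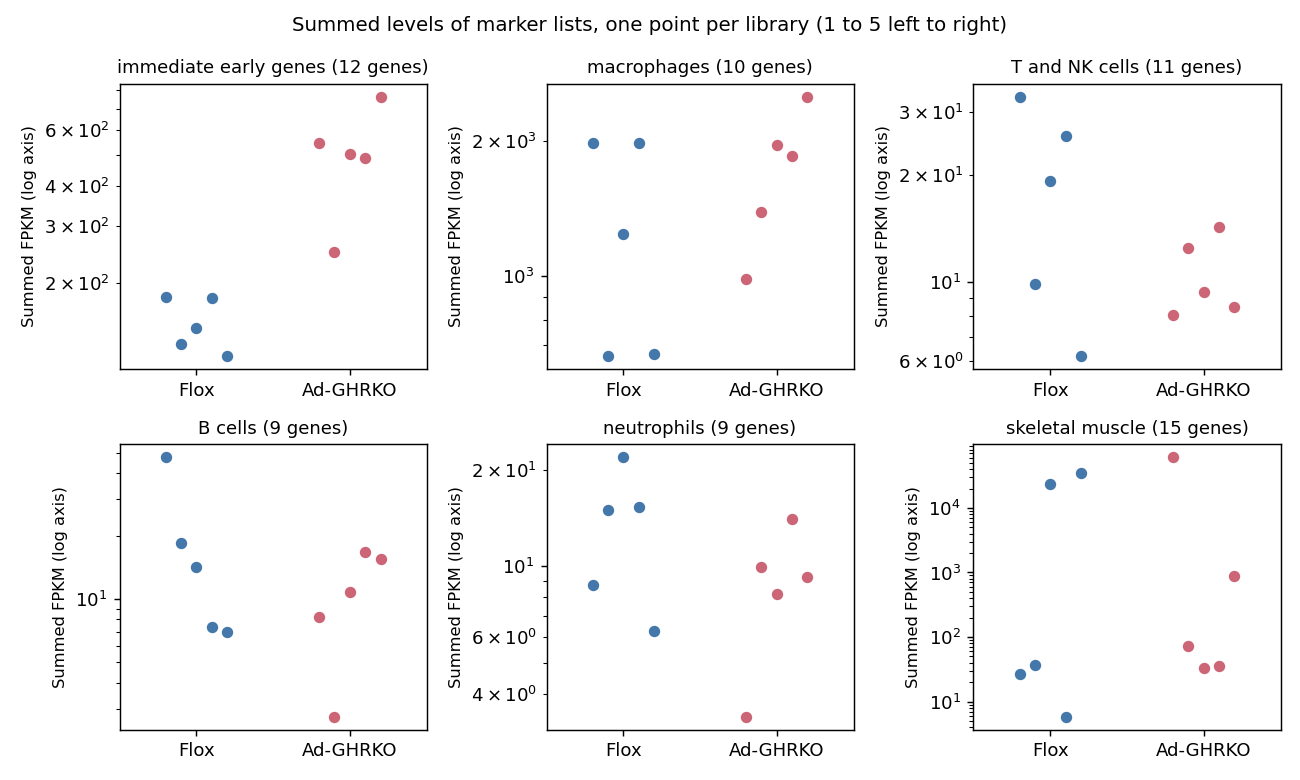
Summed FPKM of 6 marker lists per library (log axis), Flox in blue and Ad-GHRKO in red. The immediate early genes do not overlap between genotypes, the macrophage, T and NK cell, B cell and neutrophil sums do, and the skeletal muscle sum is high in Flox 3, Flox 5 and Ad-GHRKO 1.

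The lymphocyte markers that could be tested did not pass. The 11 T and NK cell markers summed to 6.19 to 33.2 FPKM in Flox and 8.08 to 14.3 in Ad-GHRKO, with 0 of 4 tested past the threshold. All 4 log2 differences were negative (median -0.56), among them Gzma (-0.86, limma adjusted p = 0.252) and Nkg7 (-0.70, limma adjusted p = 0.387). The 9 B cell markers summed to 6.96 to 47.5 and 2.75 to 16.8 FPKM, with 0 of 4 past it and all 4 log2 differences negative (median -0.49). The B cell sums averaged 18.9 and 10.8 FPKM, and Flox 1 carried most of that gap, since without it the Flox mean was 11.7. The T and NK cell sums averaged 18.8 and 10.5 FPKM, but Cd4 in that list was at 0.833 and 1.22. Among dendritic cell genes 1 of 6 rose, Itgax, which macrophages of fat also carry, from 1.34 ± 0.716 to 6.67 ± 4.24 FPKM (log2 1.59, adjusted p = 0.0447). Of 2 tested genes of lymph node stroma and high endothelium 1 fell, Enpp2, which adipocytes also express, from 45.6 ± 8.52 to 22.7 ± 5.70 FPKM (log2 -0.99, adjusted p = 0.0324), while Glycam1, Madcam1 and Tnfsf11 stayed under 1 FPKM.

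Few genes of the pathway around the ligands and receptors passed. Of 26 tested genes of chemokine receptor signalling 0 passed, with a median log2 difference of 0.15; the smallest p belonged to Pik3r5, a regulatory subunit of the leukocyte PI3 kinase, at 3.39 ± 2.01 and 7.76 ± 2.78 FPKM (log2 1.06, adjusted p = 0.131). Of 24 tested genes that induce or limit chemokine expression 1 rose, Zfp36, whose protein binds AU-rich mRNAs of cytokines and chemokines and speeds their decay. It went from 26.1 ± 7.01 to 67.4 ± 21.6 FPKM (log2 1.31, adjusted p = 0.0242) and is also an immediate early gene. The NF-kappaB targets Tnfaip3 (log2 0.60, adjusted p = 0.117), Nfkbia (log2 0.25, adjusted p = 0.560) and Nfkbiz (log2 0.52, adjusted p = 0.372) did not pass. Tnf, Il1b and Il6 were too low to test, with means of 0.432, 0.445 and 0.00923 FPKM in Flox and 0.949, 0.417 and 0.0596 in Ad-GHRKO. Under the filter and not tested, 1 of 6 genes of that list and 1 of 2 of the signalling list were higher in every Ad-GHRKO library than in any Flox library. These were Il1rn, the interleukin 1 receptor antagonist (0.154 ± 0.0944 and 2.98 ± 3.87 FPKM), and Rgs1, a regulator of G protein signalling (0.0930 ± 0.0815 and 2.10 ± 2.57), both highest in Ad-GHRKO 5. Among all tested genes 1.62% were higher with no overlap, and the share among untested genes was not computed. Of 7 tested relatives outside the name rule, such as Pf4 and Ccrl2, 0 passed. Leaving out 1 library took Itgax (without any of Flox 1 to 5, Ad-GHRKO 2, 3 or 5), Enpp2 (Flox 1 to 4, Ad-GHRKO 3 or 5) and Zfp36 (Flox 2 to 5, Ad-GHRKO 3 to 5) over the threshold, to adjusted p of at most 0.118, 0.0848 and 0.0732.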

How the data were processed

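RNA sequencing libraries of mouse inguinal white adipose tissue were compared, 5 Flox and 5 Ad-GHRKO. Libraries were made from polyadenylated RNA with a marked second strand, per the labels' protocols. The authors deposited FPKM values for 31285 genes, 1 column per library, per the file headers. The sources used here give no aligner, counter or use of strand in counting. The submitters' processing notes name GRCm39, but 99.59% of 31253 shared genes have the GRCm38 coordinates of GENCODE M21, so positions are given as GRCm38.

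FPKM times exon length and a library constant gave whole reads, within 0.01, for 99.43% to 99.49% of values. Depth was 14.6 to 19.2 M reads (mean 17.9), and the low genes rest on the read totals printed beside them. The main test took log2(FPKM + 1) of the 12785 genes that reached 1 FPKM in 5 or more libraries into limma (3.58.1; R 4.3.3), two-sided, the prior variance following mean level. P-values were adjusted over all of them (Benjamini-Hochberg, 0.05). Differences on the log2(FPKM + 1) scale understate those of low genes. For single genes an exact two-sided permutation test ran over the 252 assignments of libraries to genotypes, and its p-values are not adjusted for the number of genes. The fit was tested on simulated data. Tables were read with Python 3.11.15 and pandas 2.3.3.

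The genes and lists were chosen with earlier results of these data known. By rule, the text names Ghr, Cxcl1, Cxcl12, Ccl2, genes past 0.05, the 12 tested chemokine genes of smallest p, the 6 most abundant ligands and 6 most abundant receptors, and up to 4 genes past 0.05 or the 2 of smallest p from each marker or pathway list. Some genes are not reported here, not all genes of those lists are named, and other chemokine genes are given by role. Alternatives were array weights, median ratio scaling, a robust prior, TPM rescaling, pseudocounts of 0.5 and 0.1, quantile normalization, a filter of 5 FPKM or none, a replicate block, muscle and B cell covariates, voom on recovered reads, leaving out each library and leaving out the 3 muscle-rich ones. Added after seeing the data were a filter on the mean, voom for genes with at least 50 reads, and macrophage and T and NK cell covariates.

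Of the remaining marker lists, 0 of 6 endothelial, 0 of 2 lymphatic, 0 of 7 fibroblast and progenitor, 0 of 7 adipocyte, 0 of 3 skeletal muscle and 0 of 1 epithelial genes tested passed.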

Additional observations from a re-analysis of the deposited data

Results flagged for a closer look

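Within-group values of log2(FPKM + 1) were screened for a library far from the other 4 in 44 groups, and 4 stood apart. Chance gives about 1 in 20. Cxcl9 in Flox 5 was at 5.50 FPKM, against 10.01 to 12.2 in the other Flox libraries. Ccl8 in Ad-GHRKO 5 was at 44.5 FPKM, against 139 to 214 in the other Ad-GHRKO libraries. Cxcl13 in Flox 4 was at 50.8 FPKM, against 14.9 to 20.4, and Cxcl13 in Ad-GHRKO 2 was at 8.11 FPKM, against 35.5 to 52.4. Cxcl1 in Ad-GHRKO 5 was not flagged on this log scale. In FPKM it was at 20.5, against 1.66 to 4.64 in the other Ad-GHRKO libraries.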

How the results depend on the processing

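Over all tested genes 280 passed, 1 chemokine gene was higher (Cxcl1) and 1 lower (Ccr10). With no filter on low genes 117 of all genes passed, with 0 chemokine genes higher and 0 lower. A filter of 5 FPKM leaves out Cxcl1 and Ccr10, and 1 gene was then higher (Ccl2) and 0 lower. Median ratio scaling gave 531 genes, 2 chemokine genes higher (Cxcl1 and Ccl2) and 4 lower (Ccr10, Ccl27a, Cxcl9 and Cxcl10), and quantile normalization gave 565, 2 and 4. TPM rescaling moved the median log2 difference of all genes from 0.04 to 0.15 and gave 141 higher genes of 234 in place of 99 of 280, with 2 chemokine genes higher and 0 lower. Array weights gave 1695 genes, 4 higher (Cxcl1, Ccl2, Ccl7 and Ccl9) and 4 lower, a muscle covariate 756, 2 and 4, and leaving out the 3 muscle-rich libraries 777, 2 and 2. With a B cell covariate 2 were higher (Cxcl1 and Cxcr4). Of the fits chosen after seeing the data, the filter on the mean gave 0 lower, voom for genes with at least 50 reads gave 2 higher (Cxcl1 and Cxcl2) and 0 lower, a macrophage covariate gave 121 genes, 0 higher and 0 lower, and a T and NK cell covariate 113, 0 and 0. Leaving out 1 library gave 116 to 1185 genes, 0 to 4 chemokine genes higher and 0 to 3 lower, the highest counts coming without Ad-GHRKO 1. The labels do not say that replicate numbers pair the samples. Same-numbered deviations correlated from -0.489 to 0.394, which cannot show whether they do. A replicate block gave 85 genes, 0 chemokine genes higher and 0 lower. Pseudocounts of 0.1 and 0.5, a robust prior and voom on the tested genes kept both calls.

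Log2 differences near 0 changed sign under some settings. With a macrophage covariate they were -0.15 for Cxcl12, -0.045 for Ccl11, -0.21 for Ackr1, -0.19 for Ccr1, -0.024 for Cx3cl1, -0.13 for Cxcr6, -0.15 for Ccl24 and -0.011 for Lyve1. With a T and NK cell covariate they were 0.87 for Ccl8, 0.042 for Cxcl14, 0.20 for Ccr2, 0.061 for Ccl12, 0.25 for Cxcr3 and 0.023 for Nkg7. Ccl8 was at 0.0061 with quantile normalization, 0.011 with TPM rescaling and 0.045 with array weights, Cx3cl1 at -0.014 with quantile normalization, Ccl24 at -0.12 and Ccl12 at 0.22 with array weights, and without the 3 muscle-rich libraries Ccl12 was at 0.34 and Ccl24 at -0.32. Leaving out 1 library gave -0.0081 to 0.34 for Ackr1, -0.27 to 0.19 for Ccl12, -0.10 to 0.46 for Ccl24, -0.46 to 0.28 for Ccl8, -0.42 to 0.0068 for Ccr2, -0.042 to 0.090 for Cx3cl1, -0.12 to 0.14 for Cxcl12 and -0.31 to 0.038 for Cxcr3. The cause was not tested. Cxcl2, Cxcl3, Cxcl5 and the other genes under the filter rest on few reads.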

Other observations

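Over the 29 tested chemokine genes, single libraries held many of the extremes. Ad-GHRKO 5 was the highest library in 10 genes, among them Cxcl1, Ccl2, Ccl7, Ccl9, Ccl6, Ccl11, Cxcr4, Cxcl16 and Cxcr6, and the lowest in 3, Ccl8, Ccl5 and Ccr10. Flox 1 was the highest in 7, among them Cxcl9, Cxcl10, Ccl5, Cxcr3 and Ccl21a. Flox 2 was the lowest in 8 and Ad-GHRKO 1 in 7.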
